A study of Mus musculus with 6 samples.

Results

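The genes described here are the 10 that supply acetyl-CoA and NADPH to fatty acid synthesis in the cytosol, make and remove malonyl-CoA, and build the fatty acid chain: Acly, Acss2, Aacs, Slc25a1, Me1, Acaca, Acacb, Fasn, Thrsp and Mlycd. They were chosen by name, with earlier results of these data known. Every probe set annotated to exactly 1 of these symbols was taken, 24 probe sets in all. The arrays held 18193 genes with a probe set of their own. All values come from livers of mice that lack KRAP, KRAP-/-, and of wild-type littermates. KRAP, now listed as Itprid2, was deleted by replacing part of its coding exons with a neomycin resistance cassette, in every tissue, so the liver was studied in mice that also lack KRAP elsewhere. The mice had the C57BL6/J background, were 32 weeks old and ate normal chow. There were 3 KRAP-/- and 3 wild-type mice in 3 littermate pairs, with 1 array per mouse.

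In the cytosol of a hepatocyte, fatty acids are made from acetyl-CoA, which comes from citrate exported by mitochondria, from acetate or from ketone bodies. Acetyl-CoA carboxylase adds a carboxyl group to give malonyl-CoA, and fatty acid synthase joins these units to palmitate with the reducing power of NADPH. Malonyl-CoA also inhibits the carnitine palmitoyltransferase that admits fatty acids to mitochondria. In liver this pathway is known to be active after feeding and to fall in fasting. The paper does not state the feeding state or time of day at which the livers for the arrays were taken.

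Total RNA was hybridized to Affymetrix Mouse Genome 430 2.0 arrays, and the deposited signals were divided by the median of their array, so that 1 is the median signal. The array medians were 20.2 to 23.4 in KRAP-/- liver and 19.1 to 22.6 in wild-type liver. The 3′ to 5′ signal ratio of beta-actin, a sign of RNA integrity, was 2.28 to 2.32 in KRAP-/- liver and 2.01 to 2.65 in wild-type liver. The probe set named for Itprid2 differed by −0.17 in log2 (limma, adjusted p = 0.44), but the sources used here do not place it inside or outside the deleted exons, so it checks nothing about the labels. Hepatocyte markers summed to 3478 to 4017 in KRAP-/- liver and 3620 to 3692 in wild-type liver, and 0 of 7 measured passed the test. In RNA of a whole organ, fewer cells of a type and less RNA per cell cannot be told apart. The small number of arrays limits the precision of every value.

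Most genes of the pathway were lower in KRAP-/- liver. At the brightest probe set of each gene, 7 of the 10 genes fell by limma at an adjusted p under 0.05, none rose, and Me1, Acaca and Mlycd did not pass. Over all genes with a fitted probe set, 1.31% fell and 0.333% rose by the same rule. The 10 genes were chosen with earlier results of these data known, so these shares describe the background and test nothing. Of the 24 probe sets, 19 were bright enough to be fitted, with a mean of at least 0.5 array medians, of which 12 fell, 0 rose and 7 did not pass. Over all 28531 probe sets fitted, 0.978% fell and 0.431% rose. The median log2 change of the 10 genes was −1.26, with a range of −1.92 to −0.28, against −0.04 over all probe sets fitted. In 17 of the 19 fitted probe sets every KRAP-/- liver was below every wild-type liver, which was so for 12.3% of all probe sets fitted. The calls rest on limma's intensity trend and on the limit on dim probe sets: with either left out no probe set of the array passed, and the 12 had adjusted p-values of 0.38 to 0.42.

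**Figure D1:**
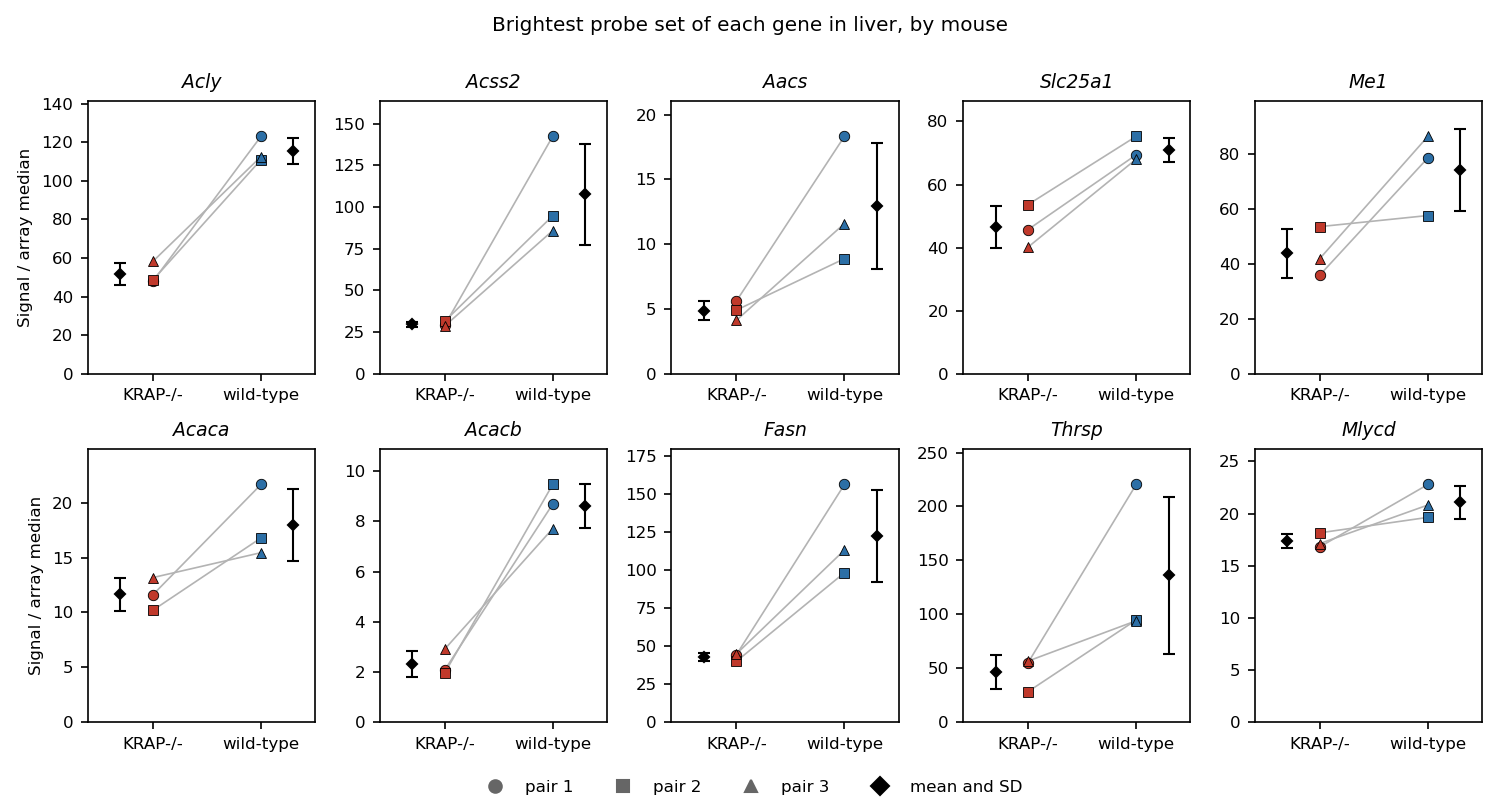
Signal of the brightest probe set of each gene, divided by the array median, in 3 KRAP-/- livers (left, red) and 3 wild-type livers (right, blue). Lines join littermates, and diamonds and their bars the mean and SD of each group of 3. In all 10 genes the KRAP-/- liver was below its littermate in each pair.

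The sequence before the annotated start of 5 of the genes is shown: Acss2 and Acly, which make acetyl-CoA, Fasn and Thrsp, of chain synthesis, and Mlycd, which had the smallest change of the 10 at the brightest probe set. Each line is the 250 bases before a start in RefSeq (GRCm38.p6), 5′ to 3′ on the strand of the gene, with CCAAT boxes (CCAAT, or ATTGG on the other strand) and GC boxes (GGGCGG, or CCGCCC on the other strand) in capitals. Acss2 lies at chr2:155517793-155518042 (plus strand), Acly at chr11:100528001-100528250 (minus strand), Fasn at chr11:120824548-120824797 (minus strand), Thrsp at chr7:97417551-97417800 (minus strand) and Mlycd at chr8:119394644-119394893 (plus strand).
Acss2: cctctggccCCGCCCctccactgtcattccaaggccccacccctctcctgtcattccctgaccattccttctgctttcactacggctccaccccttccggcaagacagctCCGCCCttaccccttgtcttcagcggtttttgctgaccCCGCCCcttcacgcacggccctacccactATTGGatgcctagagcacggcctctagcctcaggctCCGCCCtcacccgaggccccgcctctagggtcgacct
Acly: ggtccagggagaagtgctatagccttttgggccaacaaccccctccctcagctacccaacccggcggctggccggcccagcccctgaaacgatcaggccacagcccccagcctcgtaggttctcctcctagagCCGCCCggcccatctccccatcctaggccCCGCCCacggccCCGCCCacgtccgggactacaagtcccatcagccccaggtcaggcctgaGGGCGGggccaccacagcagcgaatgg
Fasn: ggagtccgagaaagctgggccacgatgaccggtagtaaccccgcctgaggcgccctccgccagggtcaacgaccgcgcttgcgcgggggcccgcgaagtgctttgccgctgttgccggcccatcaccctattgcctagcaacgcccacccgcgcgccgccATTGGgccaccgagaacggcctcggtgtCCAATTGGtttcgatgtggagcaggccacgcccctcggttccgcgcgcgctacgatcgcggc
Thrsp: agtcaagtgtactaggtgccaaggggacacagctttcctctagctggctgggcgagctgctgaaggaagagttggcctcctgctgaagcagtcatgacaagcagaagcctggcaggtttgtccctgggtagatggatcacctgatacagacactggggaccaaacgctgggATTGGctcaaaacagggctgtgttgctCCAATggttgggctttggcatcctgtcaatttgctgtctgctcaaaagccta
Mlycd: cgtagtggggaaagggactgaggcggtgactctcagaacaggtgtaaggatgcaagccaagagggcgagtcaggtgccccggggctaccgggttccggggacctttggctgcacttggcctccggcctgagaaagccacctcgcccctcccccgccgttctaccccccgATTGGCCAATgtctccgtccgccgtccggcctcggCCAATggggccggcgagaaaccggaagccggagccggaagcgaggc

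A CCAAT box is known as a site of the factor NF-Y and a GC box as a site of Sp1, both common in promoters. The window of Fasn held 3 CCAAT boxes, beginning 90, 62 and 59 bases before the start, of which the last 2 overlap on opposite strands. That of Thrsp held 2, at 79 and 52 bases, and that of Mlycd 3, at 81, 76 and 46 bases. Acss2 had 1 CCAAT box, at 73 bases, and 4 GC boxes, and Acly had 4 GC boxes and no CCAAT box. Mlycd, with the smallest change at the brightest probe set, held as many CCAAT boxes as Fasn. The part of these boxes in the changes was not tested. Windows were found for 10 of 10 genes, of which 6 held a CCAAT box, 4 a GC box and 1 an E-box (CACGTG, the same on both strands). Of all 32851 windows of this length, 33.8% held a CCAAT box, 32.7% a GC box and 6.02% an E-box. The letters TCACNCCAC, one form of the sterol regulatory element, were in 0 of the 10 windows on either strand and in 1.05% of all windows. The window of Fasn lay 619 bases from the first annotated start of its gene, that of Mlycd 42 bases, and those of Acaca and Acacb 65803 and 19197 bases, so other starts of these genes were not searched. A match in these letters is a description of the window and was not measured as binding.

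The enzymes that make acetyl-CoA in the cytosol, and Aacs, which makes acetoacetyl-CoA, fell in KRAP-/- liver. Acly, ATP citrate lyase, cleaves citrate to acetyl-CoA and oxaloacetate. Its brightest probe set (1451666_at) read 47.9, 48.5 and 58.2 array medians in KRAP-/- mice 1, 2 and 3, against 123, 111 and 113 in their wild-type littermates. The groups lay far apart and the wild-type livers were close to each other, so that KRAP-/- liver held 44.6% of the wild-type mean, with a log2 change of −1.17 (standard error, SE, of 0.10, adjusted p = 0.0013 from limma). Both other fitted probe sets of Acly fell too, by 0.96 for 1439459_x_at (adjusted p = 0.0077) and by 1.27 for 1425326_at (adjusted p = 0.0038) on the log2 scale. The 3 remaining probe sets of Acly were too dim to be fitted, and at one of them, 1446315_at, the KRAP-/- livers read 0.542, 0.320 and 0.293 against 0.128, 0.0530 and 0.266 in wild-type livers, all below the array median.

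Acss2, the cytosolic acetyl-CoA synthetase, makes acetyl-CoA from acetate. Its brightest probe set (1422479_at) read 29.0, 31.4 and 28.6 in KRAP-/- livers 1, 2 and 3, against 142, 94.7 and 85.8 in wild-type livers. The KRAP-/- livers were nearly equal, while wild-type mouse 1 stood above its group. The log2 change was −1.82 (SE 0.14, adjusted p = 8.6e-04 from limma), and KRAP-/- liver held 27.6% of the wild-type mean. A second probe set, 1422478_a_at, fell by 1.60 (adjusted p = 0.0019), and the dimmest, 1446542_at, had −0.71 (adjusted p = 0.34).

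Aacs, acetoacetyl-CoA synthetase, activates the ketone body acetoacetate in the cytosol for lipid synthesis. Its brightest probe set (1456081_a_at) read 5.60, 4.91 and 4.12 in KRAP-/- livers, against 18.3, 8.88 and 11.6 in wild-type livers. The groups did not overlap, and wild-type mouse 1 was again the highest. This was a log2 change of −1.35 (SE 0.17, adjusted p = 0.0067 from limma). The other fitted probe set, 1423797_at, had the lowest log2 change of the 19, −2.47 (SE 0.18, adjusted p = 8.3e-04), with 2.85, 2.53 and 1.95 in KRAP-/- livers against 19.9, 9.997 and 11.9 in wild-type livers. Its KRAP-/- mean was 17.5% of the wild-type mean, so the probe sets of Aacs agreed in direction but not in size.

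Acss2 and Acly reach the same product from different substrates, and their changes were set against each other within pairs. The log2 ratios of KRAP-/- to wild-type liver were subtracted, Acss2 minus Acly, which gave −0.93, −0.40 and −0.64 in pairs 1, 2 and 3 and a mean of −0.66 ± 0.27 (SD, n = 3). The exact sign-flip permutation test over 3 pairs (two-sided) gave p = 0.25, the smallest value that 3 pairs allow, so a difference could not pass 0.05 here. With the mean over all fitted probe sets of each gene in place of the brightest, the difference was −0.25.

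The genes of citrate transport and NADPH supply had smaller log2 changes, of which that of the citrate carrier passed. Slc25a1, the mitochondrial citrate carrier, exports the citrate that Acly cleaves. Its only probe set (1428190_at) read 45.7, 53.6 and 40.2 in KRAP-/- livers, against 69.4, 75.3 and 68.1 in wild-type livers. Every KRAP-/- liver was below every wild-type liver, with the mean at 65.6% of the wild-type mean, and the log2 change of −0.62 passed the test (SE 0.09, adjusted p = 0.012 from limma).

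Me1, the cytosolic malic enzyme, makes NADPH while turning malate into pyruvate. Its brightest probe set (1430307_a_at) read 35.9, 53.5 and 41.9 in KRAP-/- livers, against 78.5, 57.5 and 86.3 in wild-type livers. The groups did not overlap, but the mice of pair 2 were nearly equal, and the log2 change of −0.76 did not pass the test (SE 0.17, adjusted p = 0.078 from limma). Without pair 2 the log2 change was −1.09 (adjusted p = 1.5e-05), without pair 1 it was −0.57 (adjusted p = 0.12), and without pair 3 it was −0.62 (adjusted p = 0.091). A fit without a pair has fewer arrays, so its spread rests more on what limma shares across probe sets. Its adjusted p-values cannot be set against those of the full fit. With the signals as deposited the log2 change was −0.71 (adjusted p = 0.0499). The dimmer probe set, 1416632_at, read 18.9, 21.5 and 22.8 in KRAP-/- livers against 37.7, 22.95 and 34.2 in wild-type livers. It had a log2 change of −0.56 (adjusted p = 0.13), which was −0.34 (adjusted p = 0.38) without pair 1, −0.79 (adjusted p = 0.0025) without pair 2 and −0.55 (adjusted p = 0.12) without pair 3.

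Of the genes that make and remove malonyl-CoA, Acacb passed the test while Acaca and Mlycd did not. Acacb, acetyl-CoA carboxylase 2, is bound to the outer mitochondrial membrane, and its malonyl-CoA is the pool known to inhibit fatty acid entry. Its fitted probe set (1427052_at) read 2.06, 1.94 and 2.90 in KRAP-/- livers, against 8.69, 9.47 and 7.71 in wild-type livers. All KRAP-/- livers lay far below all wild-type livers, at 26.7% of the wild-type mean, and the log2 change of −1.92 was the lowest among the brightest probe sets of the 10 genes (SE 0.19, adjusted p = 0.0029 from limma). A second probe set, 1445754_at, was too dim to be fitted.

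Acaca, acetyl-CoA carboxylase 1, is the cytosolic form that feeds fatty acid synthase. Its brightest probe set (1434185_at) read 11.6, 10.2 and 13.2 in KRAP-/- livers, against 21.7, 16.8 and 15.5 in wild-type livers. The groups did not overlap but came close in pair 3, and the log2 change of −0.62 did not pass (SE 0.14, adjusted p = 0.073 from limma). The log2 change was −0.48 (adjusted p = 0.23) without pair 1, −0.57 (adjusted p = 0.095) without pair 2 and −0.81 (adjusted p = 0.0046) without pair 3. These adjusted p-values have the limit given for Me1. At the dimmer probe set, 1427595_at, the KRAP-/- livers read 1.89, 1.96 and 2.18 against 1.56, 2.04 and 2.57 in wild-type livers. There the groups overlapped, with a log2 change of −0.01 (adjusted p = 0.99) whose sign turned with the scaling of the arrays.

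Within pairs the log2 ratio of KRAP-/- to wild-type liver was lower for Acacb than for Acaca, with differences (Acacb minus Acaca) of −1.17, −1.57 and −1.18. Their mean was −1.31 ± 0.22 (SD, n = 3), with p = 0.25 from the exact sign-flip permutation test (two-sided), the smallest it can give. With the mean over the fitted probe sets of each gene the difference was −1.61. That mean takes in the dimmer probe set of Acaca, with a log2 change of −0.01, while Acacb had only 1 fitted probe set.

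Mlycd, malonyl-CoA decarboxylase, removes malonyl-CoA by turning it back into acetyl-CoA. Its only probe set (1449964_a_at) read 16.8, 18.2 and 17.1 in KRAP-/- livers, against 22.8, 19.6 and 20.8 in wild-type livers. The groups lay next to each other without overlap. The log2 change was −0.28 with a 95% interval of −0.52 to −0.04, and it did not pass after adjustment (adjusted p = 0.26 from limma).

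Both genes of chain synthesis fell. Fasn, fatty acid synthase, carries all the activities that build palmitate on 1 polypeptide. Its only probe set (1423828_at) read 44.2, 39.9 and 44.8 in KRAP-/- livers, against 157, 98.4 and 113 in wild-type livers. The KRAP-/- livers were nearly equal at 35.0% of the wild-type mean, and wild-type mouse 1 stood above its group. The log2 change was −1.49 (SE 0.11, adjusted p = 8.6e-04 from limma), and −1.32, −1.58 and −1.56 without pairs 1, 2 and 3.

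Thrsp, also called Spot 14, is a small acidic protein that accompanies lipogenesis and responds to thyroid hormone and carbohydrate. Its brightest probe set (1424737_at) read 55.0, 28.1 and 56.5 in KRAP-/- livers, against 220, 94.6 and 93.9 in wild-type livers. The groups did not overlap, but both were widely spread, with wild-type mouse 1 far above the others and KRAP-/- mouse 2 below the others. The log2 change of −1.50 passed with the littermate pair as a block (SE 0.20, adjusted p = 0.0086 from limma) and did not pass without it (adjusted p = 0.060). A second probe set, 1422973_a_at, gave −1.66, with adjusted p = 0.012 with the block and 0.090 without it. The third, 1444166_at, read at most 1.19 array medians in any mouse and had a log2 change of 0.88 (adjusted p = 0.58). With the mean over the 3 probe sets in place of the brightest, Thrsp had −0.76 and did not pass (adjusted p = 0.30).

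**Figure D2:**
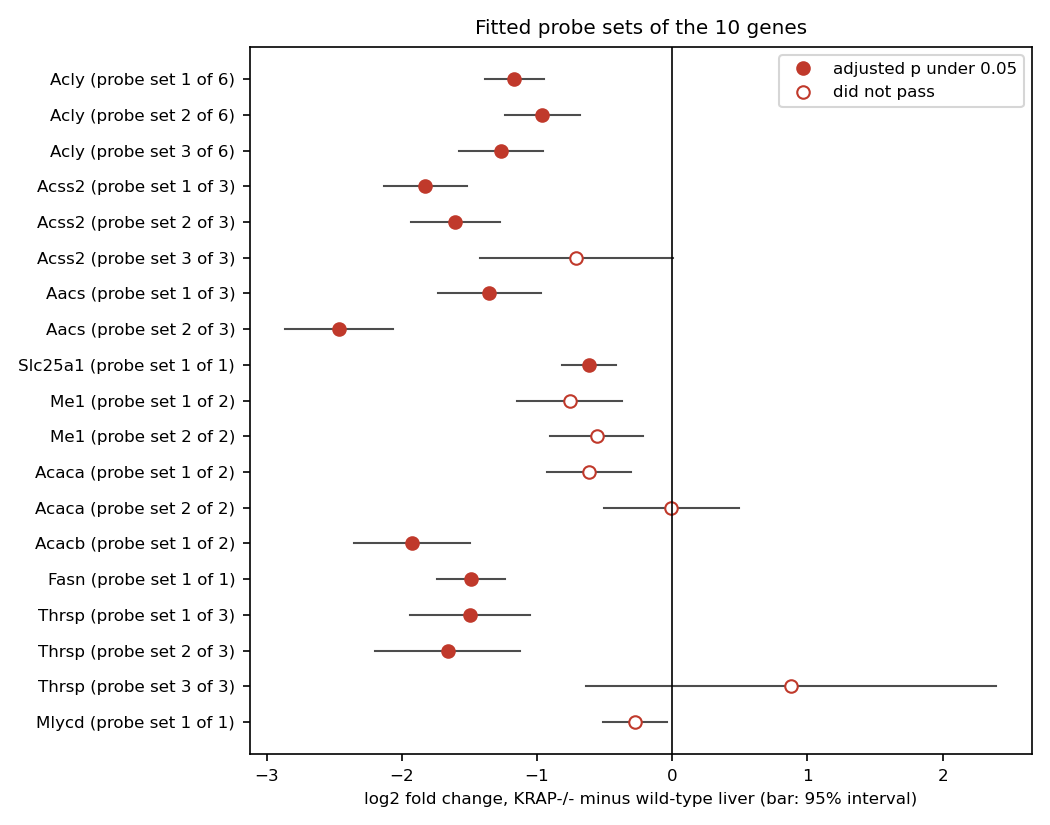
Log2 fold change of KRAP-/- minus wild-type liver at each of the 19 fitted probe sets of the 10 genes, numbered by brightness within a gene; bars are 95% intervals from limma. The 12 filled points passed at an adjusted p under 0.05 and all lie below 0, while the only point well above 0 is the dimmest probe set of Thrsp.

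The ratios of KRAP-/- to wild-type liver were mostly lowest in pair 1. Over the brightest probe sets of the 10 genes the median of these ratios was 0.347 in pair 1, 0.495 in pair 2 and 0.501 in pair 3. Over all probe sets fitted these medians were 0.979, 0.987 and 0.959. The ratio was lowest in pair 1 for 8 of the 10 genes, and wild-type mouse 1 was the highest wild-type liver for 7 of them. The same array had the beta-actin ratio of 2.65, while its 3′ to 5′ ratio of Gapdh, 0.778, lay within the 0.709 to 0.795 of all arrays. It also had the highest Fabp4. This lipid-binding protein of adipocytes and macrophages read 8.16, 8.73 and 10.2 in KRAP-/- livers, against 22.8, 10.7 and 7.81 in wild-type livers 1, 2 and 3. The part of these values in the result was not tested. Without pair 1 the count of genes that fell was 7 of 10, and without pair 2 or pair 3 it was 8, in fits on fewer arrays. At the brightest probe sets the log2 changes were closer to 0 without pair 1 for every gene but Slc25a1, with −1.59 for Acss2 (1422479_at), −1.32 for Fasn and −1.24 for Thrsp (1424737_at), and −0.63 for Slc25a1.

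**Figure D3:**
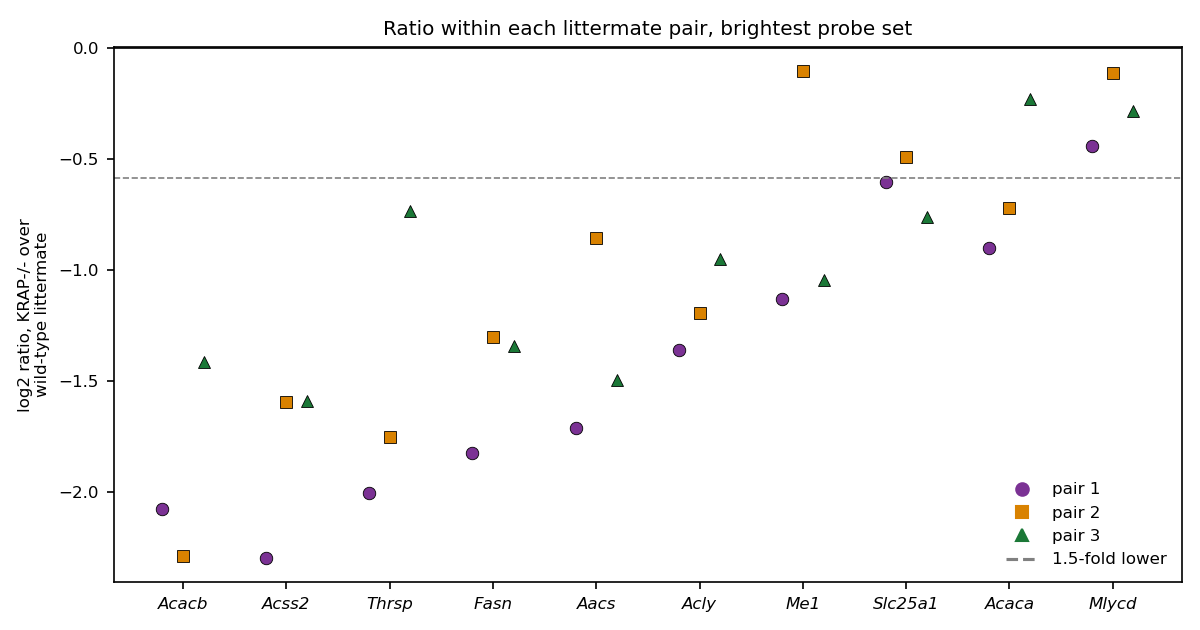
Log2 ratio of KRAP-/- to wild-type littermate at the brightest probe set of each gene, by pair. The dashed line marks a ratio 1.5-fold lower. Pair 1 is the lowest for 8 of the 10 genes, and Me1 is near 0 in pair 2 only.

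A fall of at least 1.5-fold in each of the 3 pairs, a rule with no test, was met by 10 of the 24 probe sets, of 6 genes: Acly, Acss2, Aacs, Acacb, Fasn and Thrsp. It was met by 2.88% of all 45037 probe sets and by 1.38% of those fitted, and 0 of the 24 were as much higher in each pair. Slc25a1 missed the 1.5-fold limit in pair 2 alone, with ratios of 0.659, 0.712 and 0.590 in pairs 1, 2 and 3. A limit of 2-fold in each pair was met by 6 probe sets.

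Marker genes of other cells that a liver sample can hold were read beside these genes. Of 8 adipocyte markers, a cell type that also makes fatty acids, 6 had a probe set, 4 were fitted and 0 passed. Their sum was 495 to 510 in KRAP-/- liver and 541 to 624 in wild-type liver, nearly all of it from Car3, which hepatocytes also express, and without Car3 it was 9.13 to 11.7 in KRAP-/- liver and 8.74 to 27.7 in wild-type liver. Adipoq, which defines adipocytes, read 0.144, 0.0318 and 0.253 in KRAP-/- livers and 2.20, 0.694 and 0.444 in wild-type livers (adjusted p = 0.25 from limma), and Lep was at most 0.331 on any array. Of 5 Kupffer cell markers 1 passed, Clec4f, a lectin of these liver macrophages, with −0.54 (adjusted p = 0.025), and their sum was 112 to 116 in KRAP-/- liver and 134 to 158 in wild-type liver. Markers of pancreatic acinar cells summed to 11.8 to 13.7 in KRAP-/- liver and 17.1 to 25.0 in wild-type liver, mostly Cela1, and 0 passed. None of the stellate, endothelial, cholangiocyte and erythroid markers passed. The endothelial sum was 74.1 to 78.0 in KRAP-/- liver and 80.8 to 86.3 in wild-type liver, without overlap. Without Clec4g, the brightest endothelial marker, it was 34.6 to 38.3 in KRAP-/- liver and 35.5 to 38.5 in wild-type liver, with overlap. The sums of the other 3 types overlapped. For stellate cells the sum was 62.7 to 67.2 in KRAP-/- liver and 58.0 to 72.9 in wild-type liver. Without Reln, the brightest stellate marker, it was 14.4 to 15.5 in KRAP-/- liver and 18.1 to 21.8 in wild-type liver, without overlap. Lrat, which stores retinol as esters in stellate cells, read 4.67, 6.56 and 6.09 in KRAP-/- livers, against 9.14, 8.72 and 9.14 in wild-type livers (log2 change −0.66, adjusted p = 0.070 from limma). The part of these cells in the falls of the 10 genes was not tested.

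Around the pathway, 6 lists of genes with neighbouring functions were read in the same fit, 68 genes of which 59 were fitted. At the brightest probe set 6 of the 59 fell and 1 rose, against 1.31% and 0.333% of all genes. The lists too were written with earlier results of these data known. The genes of fatty acid elongation and desaturation had the most falls. Of 13 such genes 4 fell, 0 rose and 9 did not pass at the brightest probe set, with a median log2 change of −0.39. Called lower were 2 of 3 fitted probe sets of Elovl6, 2 of 2 of Scd1, 2 of 4 of Elovl1 and 1 of 2 of Fads1. Among those that did not pass, 1 of 3 fitted probe sets of Fads2 and 1 of 2 of Tecr were called lower. Elovl6, which extends palmitate to stearate, read 17.9, 17.4 and 20.6 in KRAP-/- livers, against 50.5, 34.8 and 32.1 in wild-type livers. This was a log2 change of −1.05 (adjusted p = 0.011 from limma), with no overlap. Scd1, the main delta-9 desaturase of liver, had −0.66 (adjusted p = 0.025), Elovl1, an elongase of long saturated chains, −0.66 (adjusted p = 0.034) and Fads1, the delta-5 desaturase, −0.56 (adjusted p = 0.015). With the signals as deposited Scd1 (adjusted p = 0.072) and Fads1 (adjusted p = 0.063) did not pass.

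Of 10 genes that control the carboxylases 1 fell, 1 rose and 8 did not pass, with a median of −0.08. Mid1ip1, a relative of Thrsp that promotes polymerization of acetyl-CoA carboxylase, read 36.9, 27.1 and 28.5 in KRAP-/- livers, against 92.1, 51.2 and 50.6 in wild-type livers. There was no overlap, and wild-type mouse 1 was far above the others, as for Thrsp (log2 change −1.02, adjusted p = 0.0036 from limma). Prkaa2, a catalytic subunit of AMP-activated kinase, which phosphorylates and inhibits the carboxylases, read 29.4, 32.5 and 28.9 in KRAP-/- livers, against 15.2, 22.6 and 22.5 in wild-type livers. Its log2 change of 0.61 was at the threshold (adjusted p = 0.0498 from limma). It did not pass without pair 1 (0.44, adjusted p = 0.13), without the block (adjusted p = 0.082) or with a floor of 0.01 (adjusted p = 0.053). Of the 3 fitted probe sets of Prkaa2, this 1 was called higher and 0 were called lower.

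Of 16 regulators of lipogenesis 15 were fitted, of which 1 fell, 0 rose and 14 did not pass, with a median of −0.20. Mlxipl, the carbohydrate response factor ChREBP, read 41.9, 39.6 and 39.9 in KRAP-/- livers, against 78.5, 68.1 and 57.5 in wild-type livers. The livers of the genotypes did not overlap (log2 change −0.74, adjusted p = 0.0085 from limma). Of 11 mitochondrial counterparts, the enzymes that activate acetate, make NADPH or build fatty acids inside mitochondria, 7 were fitted and 0 passed, with a median of −0.14. Their largest values were −0.28 for Me2, a mitochondrial malic enzyme (adjusted p = 0.75), and −0.27 for Acsf3, malonyl-CoA synthetase (adjusted p = 0.37).

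The genes of the carnitine shuttle, whose first step malonyl-CoA inhibits, did not pass in either direction, with 4 of 6 fitted and a median of 0.17. Slc25a20, the carnitine-acylcarnitine carrier, read 131, 120 and 125 in KRAP-/- livers, against 86.5, 78.5 and 116 in wild-type livers, without overlap (log2 change 0.44, adjusted p = 0.10 from limma). Cpt1a, the liver form of the inhibited transferase, had 0.30 (adjusted p = 0.31). Of 12 genes of the pentose phosphate pathway and of isocitrate and citrate supply 10 were fitted and 0 passed at the brightest probe set, with a median of −0.12. Their largest values were −0.56 for Pgd, 6-phosphogluconate dehydrogenase (adjusted p = 0.058), and −0.47 for Rpia, ribose 5-phosphate isomerase (adjusted p = 0.17).

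**Figure D4:**
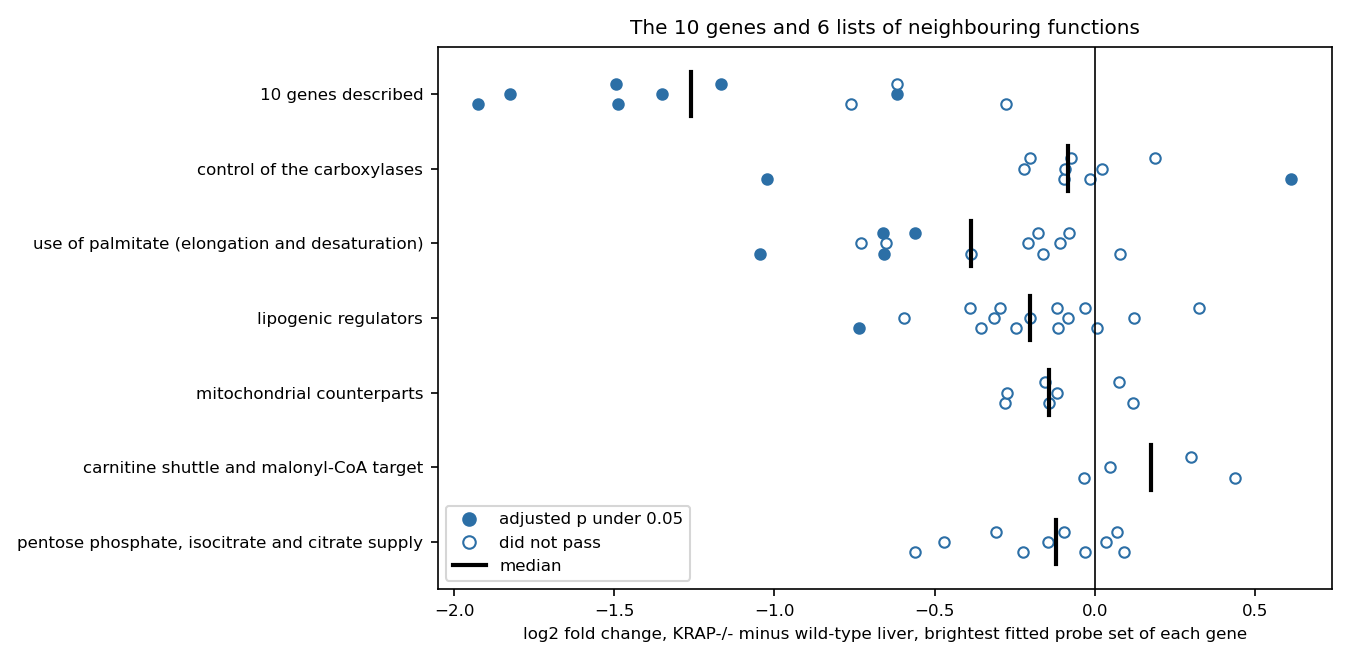
Log2 fold change of KRAP-/- minus wild-type liver at the brightest fitted probe set of each gene, for the 10 genes and 6 lists of neighbouring functions. Filled points passed (adjusted p under 0.05), and vertical bars are medians. The row for use of palmitate holds the genes of elongation and desaturation, whatever chain they act on. The median of the 10 genes is −1.26, and those of the lists lie between −0.39 and 0.17.

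The genes whose signal followed Fasn most closely over the 6 arrays were sought among 19189 probe sets with a mean of at least 1 and a single gene symbol, by Pearson's r of log2 signals. Both genotypes enter this r, so it holds the difference between them, and 4.24% of the probe sets had an r over 0.9. The first was a probe set of Pgd, 1423706_a_at, dimmer than the one above (r = 0.999), which read 7.04, 6.46 and 7.15 in KRAP-/- livers against 13.7, 10.8 and 11.4 in wild-type livers and fell by 0.79 (adjusted p = 0.017 from limma). It was followed by Oasl1, an interferon-induced gene (r = 0.998, log2 change −1.05, adjusted p = 0.0098), Spryd7 (r = 0.996, −0.21, adjusted p = 0.37), Pstpip2, an adaptor protein of myeloid cells (r = 0.996, −1.39, adjusted p = 0.0030), and Atpif1, the inhibitor of ATP synthase (r = 0.995, −0.44, adjusted p = 0.097). Among the 10 genes themselves the r with Fasn ran from 0.986 for Acss2 to 0.846 for Slc25a1 and Me1. The r over the same 6 arrays was also taken with each genotype centred on its own mean, so that the difference between them is out. This r ran from 0.878 for Thrsp and 0.870 for Aacs to 0.240 for Me1, 0.074 for Acacb and −0.43 for Slc25a1. Fasn, Thrsp and Aacs were each highest in wild-type mouse 1, and the part of this array in these values was not tested.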

How the data were processed

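The authors processed Affymetrix Mouse Genome 430 2.0 arrays with GCOS, and the deposited values are linear signal intensities, 1 array per mouse, not scaled to a common median. The version of GCOS is not given in the sources used here. The per chip scaling of the methods is absent from the values, so each intensity was divided by its array's median, as that scaling does, and no scaling to wild-type was used. After 64 control probe sets were left out 45037 were kept, of which 34945 had 1 gene symbol in the platform annotation, 932 several and 9160 none. A floor of 0.1 was set before log2. The 28531 probe sets averaging 0.5 or more entered limma 3.58.1 (under R 4.3.3) with a term for the littermate pair (the block), an intensity trend and Benjamini-Hochberg adjustment over all of them at 0.05. The fit was also run on simulated data whose spreads were drawn from the fitted intensity trend, so that run cannot check the trend. Pairs follow the mouse numbers of the labels, which do not name littermates and were taken as the numbered littermate pairs of the methods. Deviations from the genotype means of the mice so paired correlated by 0.043, 0.0095 and −0.012. For each gene the brightest probe set, by mean over all 6 arrays, gave its value, and levels were not set against each other between probe sets. Named genes were the 10 with all their probe sets, in each list up to 4 that passed or, where none passed, the 2 with the largest change, and the 5 genes nearest to Fasn by r. The genes, lists and rules were chosen with earlier results of these data known. Motifs were searched in RefSeq windows (GRCm38.p6) with Python 3.11.15 and pandas 2.3.3, tests over pairs used numpy 2.4.6 and scipy 1.17.1, and plots matplotlib 3.10.9. Alternatives were other scalings, floors, a pseudocount, other limits on dim probe sets, no block, no trend, no cross-hybridizing probe sets, the mean over probe sets of a gene, a 2-fold limit, and each pair left out in turn. With a pair left out the fit has fewer arrays and rests more on the spread shared across probe sets. Its adjusted p-values and counts are not comparable with those of the full fit.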

Additional observations from a re-analysis of the deposited data

How the results depend on the processing

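The falls of the 10 genes depended on limma's intensity trend and on the limit on dim probe sets. When all 45037 probe sets were tested, 0 probe sets of the array were lower or higher in KRAP-/- liver (4551 with an unadjusted p under 0.05), and without the trend also 0 (3089 unadjusted), so that 0 of the 12 probe sets, 0 of the 7 genes and 0 genes of the lists passed; the cause was not tested. With the other alternatives the count of genes that fell was 6 to 8, and of probe sets 10 to 14. Without the pair as a block it was 6 genes and 10 probe sets, since both called probe sets of Thrsp were lost, and it changed no other call of the 10 genes. With the mean over the probe sets of each gene it was 6, Thrsp again not passing (adjusted p = 0.30 from limma). The only reversal was the dimmer probe set of Acaca, with log2 fold changes of 0.044 with the signals as deposited, 0.0070 with quantile normalization, and −0.15 to 0.11 when 1 pair was left out. Over all probe sets 279 were lower and 123 higher, against 205 and 170 as deposited and 208 and 151 with quantile normalization, and leaving out 1 pair gave 267 to 522 lower and 110 to 338 higher. The 1 list gene that rose became 0 with a floor of 0.01 or without the block, and 0 to 3 when a pair was left out. The rule of 1.5-fold in each pair took 10 probe sets and a 2-fold limit 6.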
